A study of Drosophila melanogaster with 12 samples.

Results

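The genes described here encode the exon junction complex (EJC) and the ASAP complex, 7 of the 17612 genes that were counted in RNA immunoprecipitation sequencing (RIP-Seq) of the RNA-binding protein Caper. They were taken by gene identifier and comprise 3 ASAP genes (*Acn*, *RnpS1* and *Bin1*) and the 4 core EJC genes (*tsu*, *mago*, *eIF4A3* and *btz*). Caper, the fly ortholog of the human splicing factor RBM39, was immunoprecipitated (IP) from lysates of adult *Drosophila* heads, and the RNA that came with it was sequenced beside the RNA of the lysate (input). All 12 libraries came from flies of the genotype Hsp70Gal4 x UASCaperFlag, in which a heat shock promoter drives FLAG-tagged Caper, kept at 37°C for 2 h and then at 30°C overnight. The 4 groups of 3 libraries were the IPs with a rabbit anti-Caper antibody (replicates 1 to 3, the Caper IP), the IPs with a mouse anti-FLAG antibody (replicates 4 to 6, the FLAG IP) and the inputs with the same numbers. Every library therefore carried the tagged protein and the heat shock, the driver is not restricted to one cell type, and no mock IP is among the libraries analysed, so an IP was compared only with its inputs. The labels give neither the age nor the sex of the flies. Each antibody has replicates of its own, so the antibody and its set of replicates cannot be told apart.

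The EJC is a marker that splicing leaves on messenger RNA a short distance upstream of each exon-exon junction. The helicase eIF4A3 clamps the RNA, the Mago and Tsunagi heterodimer locks the clamp, and Barentsz joins as the peripheral core subunit, and the complex then acts in export, localization, translation and nonsense-mediated decay (NMD) of the transcript. The ASAP complex, formed by Acinus, RnpS1 and the SAP18 ortholog Bin1, associates with the EJC and acts in splicing, and in the *Drosophila* germ line and eye the EJC and its partners are known for the localization of *oskar* RNA and the splicing of transcripts with long introns. The question addressed here is whether the RNAs of these proteins were themselves enriched with Caper.

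*Acn* is the member that the study also measured by RT-PCR, so the designed primers are shown as the sequence by which that transcript was followed outside the libraries. In that separate assay the paper reports *Acn* enriched in FLAG IPs over mock IPs made from *yw* control flies. Both are written 5′ to 3′ and belong to a gene on chromosome 2L. Their positions within *Acn* were not located here.
*Acn* forward primer, 22 bases: agccggacgacgcctagaaagc
*Acn* reverse primer, 21 bases: gcttaggggcactggctgcac

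Between 9615414 and 12579559 read pairs were counted on genes in the inputs and between 20431211 and 34264177 in the IPs. Of all alignments, genes took 22.7 to 26.2% in input libraries, 53.7 to 60.1% with the FLAG antibody and 69.3 to 72.4% with the Caper antibody, and the part of this gap in the values below was not tested. Markers of neurons, photoreceptors and glia were present in every library, with 1730 to 2303 CPM of *nSyb* and 13981 to 32853 CPM of the opsin gene *ninaE*. CPM are counts scaled to a library of 1000000 after TMM normalization over the 12 libraries, a scale on which a gene is compared with itself across libraries. The yolk protein genes of the fat body were also present, and their summed level, taken with *Fbp1*, ran from 2123 to 16423 CPM. Of the other tissues considered, flight muscle, germ line and male accessory gland markers together reached at most 122, 3.62 and 23.6 CPM per list. All 7 members passed the filter on low counts in every comparison.

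In the inputs the members differed in level per kilobase of exon (RPKM, which is CPM divided by exon kilobases), the scale used here to compare one gene with another. *Acn* was the most abundant, at a median of 41.5 RPKM over the 6 inputs (lowest 38.7, highest 42.4), and *btz* followed at 26.0 (25.2 to 27.6) and *tsu* at 19.8 (17.8 to 21.6). These 3 genes did not overlap with each other or with the next gene, and each was above the next in 6 of 6 inputs. *RnpS1* followed at 12.8 RPKM (10.03 to 13.7), *eIF4A3* at 10.7 (8.34 to 12.4), *mago* at 9.96 (8.94 to 11.6) and *Bin1* at 7.02 (3.64 to 12.1), and these neighbours did not differ beyond their spread. The order was the same when library size alone was used for scaling. Scaling multiplies all genes of a library alike and cannot reorder them within it, so this is no separate check.

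**Figure D1:**
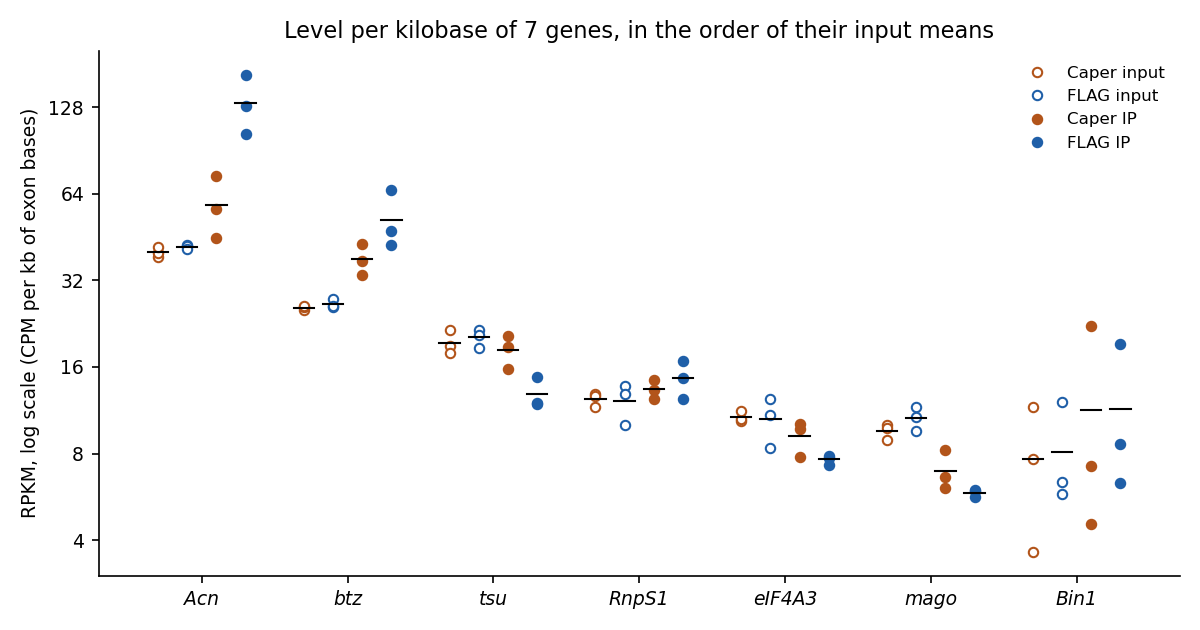
Level of the 7 genes in RPKM (CPM per kilobase of exon bases, log axis) in each of the 12 libraries, ordered by the mean of the 6 inputs. Open circles are inputs, filled circles IPs, orange the Caper replicates and blue the FLAG replicates, and black lines are means of 3 libraries. *Acn* and *btz* stand above the rest in the inputs and stand highest in the FLAG IP, while *Bin1* spreads most.

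The spread of a member among the inputs was unequal. The SD of log2 CPM over the 6 inputs was 0.04 for *btz* and 0.05 for *Acn*, and only 1.39% and 3.07% of the 8791 genes with a mean of at least 50 counts had a smaller one (median SD 0.16). *Bin1* had an SD of 0.65, its highest input was 3.32 times its lowest, and 97.7% of genes had a smaller SD. The other 4 members lay between 0.12 (*tsu*) and 0.19 (*eIF4A3*).

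Before IP, the libraries of replicates 4 to 6 and of replicates 1 to 3 did not differ detectably in any member. With edgeR's quasi-likelihood test, 0 of the 7 were called at an adjusted p-value below 0.05 and 0 had an unadjusted p-value below 0.05, the largest log2 difference being 0.14 (*mago*). Of all 9944 genes tested, 0 were called, 176 had an unadjusted p-value below 0.05, and DESeq2 called 0.

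Against these inputs, *btz* was enriched in both IPs and *Acn* in the FLAG IP, whereas *mago* and *tsu* were depleted in the FLAG IP. For the Caper IP edgeR thus called 1 member higher (*btz*) and 0 lower, beside 6.33% of all 10778 genes tested called higher and 7.53% called lower. For the FLAG IP it called 2 members higher (*Acn* and *btz*) and 2 lower (*mago* and *tsu*), beside 19.5% and 20.8% of 10476 genes. A replicate block, in which an IP is set against the input of the same number, left 2 members higher (*Acn* and *btz*) and 1 lower (*mago*) in the Caper IP, where it called 15.8% of all genes higher and 14.8% lower. In the FLAG IP the block called every member, *Acn*, *btz*, *RnpS1* and *Bin1* higher and *mago*, *tsu* and *eIF4A3* lower, beside 29.6% of genes higher and 29.5% lower. Scaling by library size alone, without TMM, gave 1622 genes higher and 533 lower in the Caper IP against 682 and 812 with TMM, and 2522 and 1685 in the FLAG IP against 2045 and 2184. This scaling raised the median log2 fold change of all genes by 0.15 with the Caper antibody and 0.09 with the FLAG antibody.

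**Figure D2:**
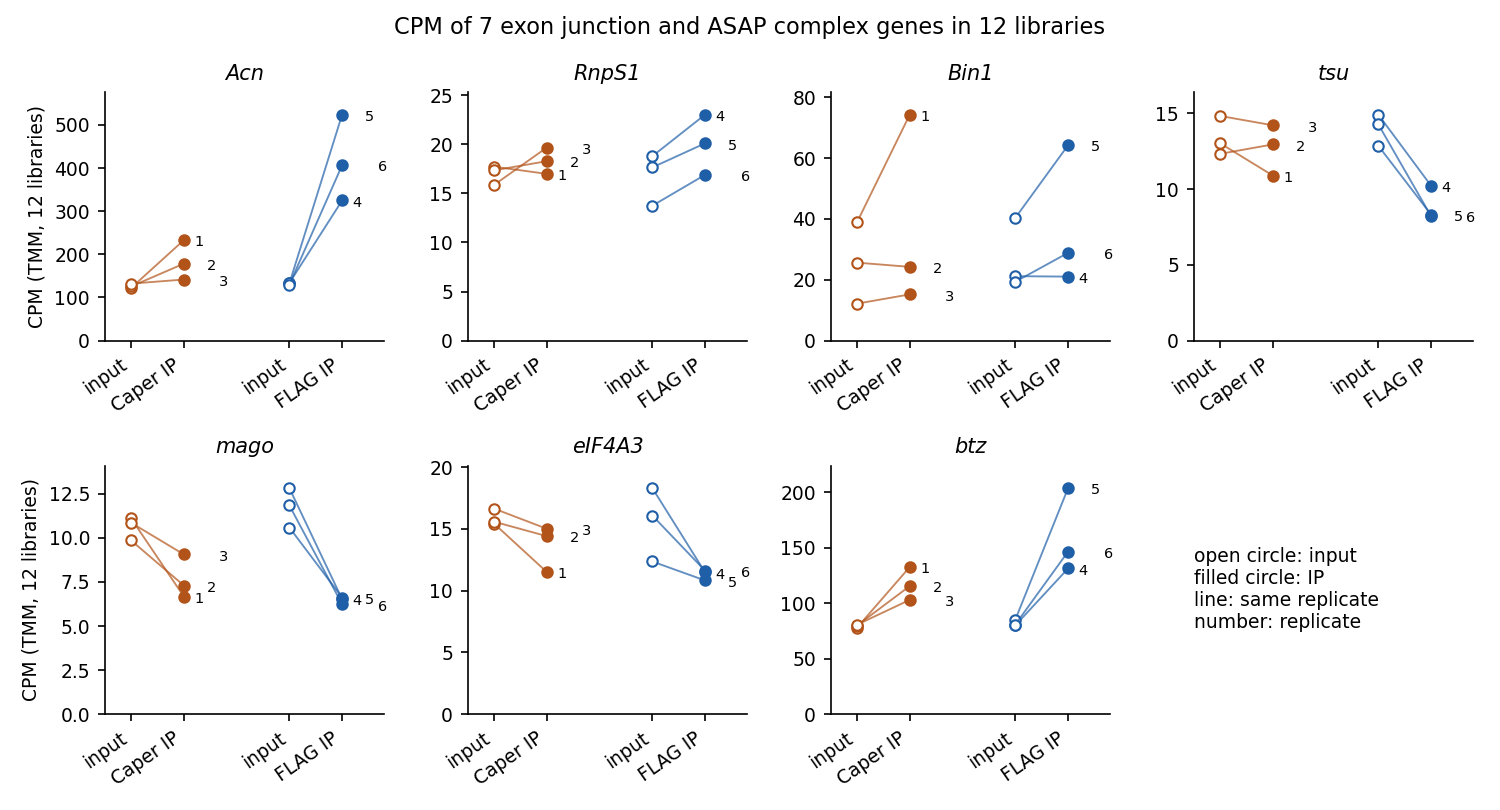
CPM of each gene in the 12 libraries, with open circles for inputs, filled circles for IPs and a line joining the IP and the input of one replicate, whose number stands beside the IP. *Acn* and *btz* lie above their inputs in both IPs, *mago* and *eIF4A3* lie below them in both, and *Bin1* is high in replicates 1 and 5 before and after IP.

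*Acn* (FBgn0263198) is on the plus strand of chromosome 2L between 19045355 and 19048817 and has 3153 exon bases. It encodes Acinus, the scaffold of the ASAP complex. Its levels were 122, 125 and 132 CPM in the inputs of replicates 1 to 3 and 233, 178 and 142 CPM in the matching Caper IPs. All 3 IPs were above all 3 inputs, which held for 18.1% of the genes tested, but replicate 3 exceeded its own input by only 1.07-fold where replicate 1 did by 1.91-fold. The log2 fold change was 0.55 (standard error 0.17, 95% interval 0.14 to 0.96), and edgeR's adjusted p was 0.0787, 0.0350 with the replicate block, 0.0330 by DESeq2 and 0.0363 with library size alone. Leaving out the IP of replicate 3 gave an adjusted p of 0.0433 without the block, and with it the call was lost without the pair of replicate 1 (0.0746) or of replicate 2 (0.0847).

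For the FLAG IP the inputs of replicates 4 to 6 held *Acn* at 134, 133 and 129.7 CPM and the IPs at 325, 524 and 407 CPM. The lowest IP was thus above the highest input by a wide margin, and 25.4% of all genes had FLAG IPs that were all above the inputs. *Acn* rose from 132 ± 2.02 to 419 ± 100.04 CPM (mean ± SD of 3 libraries), or by 1.67 on the log2 scale (95% interval 1.29 to 2.06, edgeR adjusted p = 0.000452), and 98.7% of the genes tested had a lower value. The call was made without each of the 6 libraries in turn, at log2 fold changes of 1.48 to 1.82.

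*RnpS1* (FBgn0037707), on the plus strand of 3R between 9552034 and 9553747 with 1370 exon bases, encodes the RNA-binding subunit that ASAP shares with the related PSAP complex. It measured 17.7, 17.3 and 15.9 CPM in the Caper inputs and 16.99, 18.3 and 19.7 CPM in the IPs, which overlapped. The log2 fold change was 0.12 (95% interval -0.13 to 0.38, edgeR adjusted p = 0.505). With the FLAG antibody it measured 18.8, 17.6 and 13.7 CPM in the inputs and 23.0, 20.1 and 16.9 CPM in the IPs. The groups overlapped again, yet each IP was above its own input, by 1.14-fold to 1.23-fold. The log2 fold change was 0.27 (95% interval -0.12 to 0.65), with an adjusted p of 0.230 that became 0.0299 with the replicate block. That call was lost without the pair of replicate 4 (0.140) or of replicate 6 (0.111).

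*Bin1* (FBgn0024491), on the minus strand of 3R between 16186156 and 16189564 with 3336 exon bases, encodes the SAP18 ortholog, first known as a partner of Bicoid and of the Sin3 corepressor. Its replicates lay far apart before any IP. The Caper inputs held 38.9, 25.6 and 12.2 CPM and the Caper IPs 74.3, 24.2 and 15.2 CPM, while the FLAG inputs held 21.2, 40.3 and 19.4 CPM and the FLAG IPs 21.0, 64.2 and 28.9 CPM. Replicates 1 and 5 were thus the highest of their group before and after IP. The summed level of the 3 fat body markers (*Yp1*, *Yp2* and *Fbp1*, all detected in every library) was likewise highest in replicates 1 and 5, at 8908 and 6491 CPM in those inputs against 2123 to 5193 CPM in the other inputs, and at 16423 and 7224 CPM in those IPs against 2213 to 4242 CPM in the others. Of these markers *Fbp1* was near 0, at 0.317 to 1.63 CPM. The part of the fat body RNA in the *Bin1* values was not tested, and the labels do not give the sex of the flies. In such bulk RNA more cells of a type cannot be told apart from more RNA per cell. The log2 fold change of *Bin1* was 0.58 in the Caper IP (95% interval -0.99 to 2.15, edgeR adjusted p = 0.617) and turned to -0.36 without the IP of replicate 1. In the FLAG IP it was 0.50 (95% interval -0.55 to 1.54, adjusted p = 0.408) and turned to -0.11 without the IP of replicate 5. The replicate block, which removes the level that an IP shares with its input, narrowed the FLAG IP interval to between 0.21 and 0.69 at a log2 fold change of 0.45 (adjusted p = 0.00342), although 1 of the 3 pairs was at -0.01 and the call was lost without the pair of replicate 5 (0.0617). In the Caper IP the blocked value of 0.43 was not called (adjusted p = 0.130, and 0.0276 without the pair of replicate 2).

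*tsu* (FBgn0033378), on the plus strand of 2R between 9110799 and 9111578 with 691 exon bases, encodes Tsunagi, the Y14 ortholog. It was measured at 13.03, 12.3 and 14.8 CPM in the Caper inputs and at 10.9, 12.9 and 14.2 CPM in the Caper IPs, so the groups overlapped. The log2 fold change was -0.07 (95% interval -0.41 to 0.28, edgeR adjusted p = 0.813), and its sign turned when library size alone was used (0.08) and when the exon length of genes was corrected for (0.11). In the FLAG replicates it was measured at 14.9, 12.9 and 14.3 CPM in the inputs and at 10.2, 8.31 and 8.21 CPM in the IPs. All 3 IPs were below all 3 inputs, which held for 27.9% of the genes tested. *tsu* fell in the FLAG IP, at -0.64 on the log2 scale (standard error 0.14, adjusted p = 0.00900), and was called without each library in turn at adjusted p-values of up to 0.0368.

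*mago* (FBgn0002736), on the plus strand of 2R between 21128577 and 21129737 with 1103 exon bases, encodes Mago nashi, the partner of Tsunagi. The Caper inputs held 11.1, 9.86 and 10.9 CPM and the IPs 6.67, 7.30 and 9.06 CPM, so that all 3 IPs were below all 3 inputs, as were those of 18.3% of the genes tested. The log2 fold change of -0.45 (95% interval -0.83 to -0.07) had an edgeR adjusted p of 0.108, and of 0.0498 with the replicate block. That last call was lost without any 1 of the 3 pairs, at 0.103 to 0.134. In the FLAG replicates the inputs held 12.8, 10.6 and 11.8 CPM and the IPs 6.52, 6.62 and 6.23 CPM. *mago* fell from 11.8 ± 1.12 to 6.46 ± 0.199 CPM, or -0.85 on the log2 scale (standard error 0.13, edgeR adjusted p = 0.00210), the lowest of the members, and 9.04% of genes were lower. The call was made without each library in turn.

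*eIF4A3* (FBgn0037573; its RefSeq symbol is CG7483), on the plus strand of 3R between 8313208 and 8314864 with 1481 exon bases, encodes the DEAD-box helicase that anchors the EJC. Its levels were 15.4, 15.6 and 16.6 CPM in the Caper inputs and 11.5, 14.4 and 15.002 CPM in the IPs. The IPs were all below the inputs, as were those of 18.3% of the genes tested, but by little in replicates 2 and 3. The log2 fold change of -0.21 had a 95% interval from -0.53 to 0.12 (edgeR adjusted p = 0.366). With the FLAG antibody the inputs held 18.3, 12.4 and 16.1 CPM and the IPs 11.5, 10.8 and 11.6 CPM. Again every IP was below every input, which held for 27.9% of the genes tested. The adjusted p of the log2 fold change of -0.45 (95% interval -0.80 to -0.09) was 0.0504. It was 0.00567 with the replicate block (0.0752 without the pair of replicate 4), 0.0133 without the input of replicate 5 and 0.0423 with the correction for exon length. The paralogous translation initiation helicase gene *eIF4A* had log2 fold changes of 0.03 against the Caper inputs (adjusted p = 0.904) and -0.40 against the FLAG inputs (adjusted p = 0.0405).

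*btz* (FBgn0045862), on the plus strand of 3R between 27700361 and 27703445 with 3085 exon bases, encodes Barentsz, the peripheral core subunit, named for its role in localizing *oskar* RNA in the oocyte. Over the 6 inputs together its log2 CPM had the smallest SD of the members, at 77.8, 79.7 and 80.5 CPM for the Caper IP and 79.9, 85.1 and 80.7 CPM for the FLAG IP. The Caper IPs held 133, 115 and 103 CPM and the FLAG IPs 131, 204 and 146 CPM. Every IP was above every input of its antibody. This held for 18.1% of the genes tested with the Caper antibody and for 25.4% with the FLAG antibody. *btz* rose in the Caper IP, at 0.57 on the log2 scale (standard error 0.10, edgeR adjusted p = 0.0183), and in the FLAG IP, with 0.98 (standard error 0.16, adjusted p = 0.00291). With the Caper antibody the call was lost without the input of replicate 1 (adjusted p = 0.0942), replicate 2 (0.112) or replicate 3 (0.0596) and without the IP of replicate 2 (0.0635), at log2 fold changes of 0.54 to 0.60. With the replicate block (adjusted p = 0.00627) it was made without each pair in turn, at 0.00812 to 0.0373. In the FLAG IP it was made without each library in turn.

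**Figure D3:**
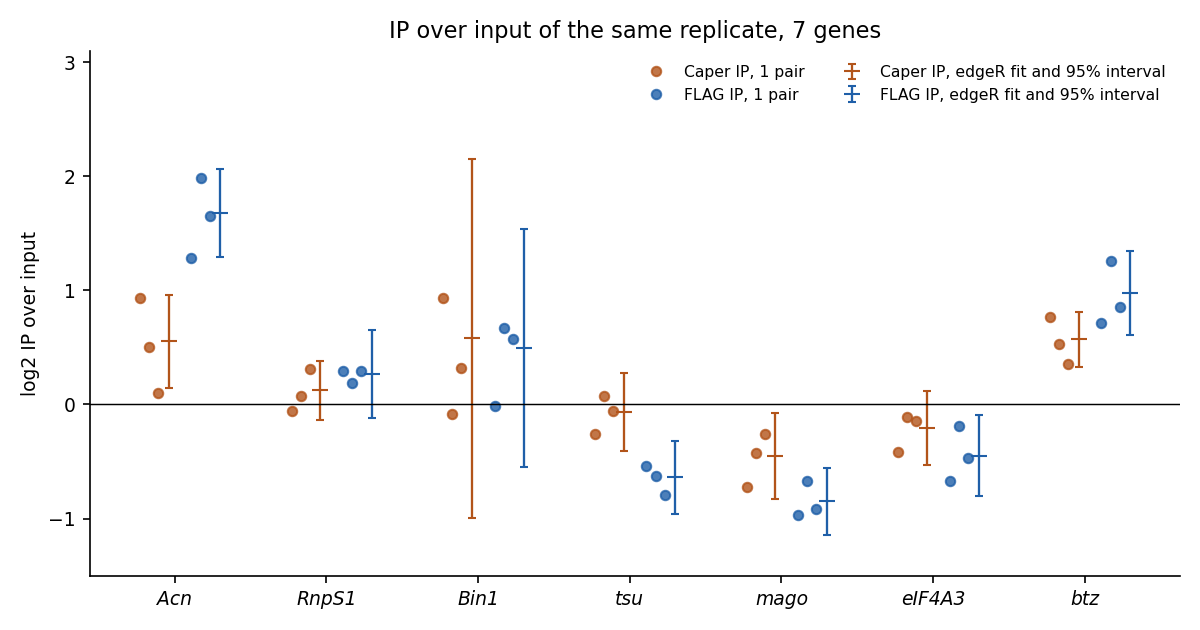
Log2 ratio of IP over the input of the same replicate for the 7 genes (points, log2 CPM with a prior count of 2), beside the fitted log2 fold change of edgeR without the replicate block and its 95% interval (bars), orange for the Caper IP and blue for the FLAG IP. *Acn* and *btz* are above 0 in 6 of 6 pairs and *mago* and *eIF4A3* below 0 in 6 of 6, and the intervals of *Bin1* are the widest.

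Counted by pairs, *Acn* and *btz* were above their input in 6 of 6 pairs, a pattern shown by 22.4% of the 11012 genes tested over all libraries, and *mago* and *eIF4A3* were below it in 6 of 6, as were 22.3% of genes. *RnpS1* was above in 5 pairs, *Bin1* in 4 and *tsu* in 1. Within the Caper IP, replicate 1 gave the highest ratio for *Acn* (0.93 on the log2 scale), *btz* (0.77) and *Bin1* (0.93) and the lowest for *mago* (-0.73), *eIF4A3* (-0.42) and *tsu* (-0.26). Replicate 3 gave the lowest ratio for *Acn* (0.10) and *btz* (0.35). Within the FLAG IP, replicate 5 gave the highest ratio for *Acn* (1.98), *btz* (1.26) and *Bin1* (0.67). It did not give the lowest for the depleted members, and its ratios of *mago* (-0.67) and *eIF4A3* (-0.19) were the least negative of the FLAG pairs. Its ratio of *RnpS1* (0.19) was the lowest of them.

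Whether enrichment differed between the antibodies was tested as the difference of both log2 fold changes over all 12 libraries. Without the replicate block 0 of the 7 members were called, beside 0.817% of 11012 genes higher in the FLAG IP and 0.145% lower. Of the members 2 had an unadjusted p-value below 0.05 (*Acn* and *tsu*), and DESeq2 called *Acn* (adjusted p = 0.00179), while it gave no adjusted p for *tsu* and *mago*. *Acn* was 1.12 higher in the FLAG IP on the log2 scale (95% interval 0.55 to 1.70), and its edgeR adjusted p was 0.0768 without and 0.00995 with the block, which called 6.62% of genes higher. It was 0.0154 without the block when the Caper IP of replicate 1 was left out, 0.0329 when the FLAG IP of replicate 4 was, and 0.0645 with the block when the pair of replicate 6 was. *tsu* differed by -0.57 (95% interval -0.99 to -0.15), with an adjusted p of 0.174 and of 0.0385 with the block, which called 5.44% of genes lower. That call was lost without any 1 of the pairs of replicates 2 to 6, at 0.0636 to 0.164, and with the length correction and block, at 0.0651. The differences of the other members had 95% intervals, in the fit without the block, of -0.04 to 0.86 (*btz*), -0.80 to 0.02 (*mago*), -0.69 to 0.21 (*eIF4A3*), -0.29 to 0.58 (*RnpS1*) and -2.03 to 1.87 (*Bin1*). With the block *btz* had an adjusted p of 0.113, and of 0.0214 without the pair of replicate 1. These intervals do not show that both antibodies brought down the same amount of those RNAs.

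The members called without the replicate block were long where they were higher and short where they were lower, while the block also called the short *RnpS1* higher in the FLAG IP. *Acn*, *btz* and *Bin1* have over 3000 exon bases, and the other 4 have 691 to 1481. Length moved with the fold changes of all genes in the FLAG IP, where 29.05% of the 3315 genes with at least 3000 exon bases were called higher and 15.1% lower, against 10.1% higher and 30.2% lower among the 3504 genes with fewer than 1500. In the Caper IP the same shares were 6.40% and 9.59% of the longer genes and 3.74% and 9.32% of the shorter, but the genes between had 8.80% higher and 3.96% lower, so the shares did not run one way with length. With the length of each gene corrected for in every library, the FLAG IP log2 fold changes were 1.54 for *Acn* (edgeR adjusted p = 0.000405), 0.85 for *btz* (0.00349), -0.74 for *mago* (0.00247) and -0.34 for *tsu* (0.0366), so these 4 calls were made with the correction too. The Caper IP value of *btz* was 0.47 (0.0255), and *Acn* was at 0.45 (0.118, and 0.0501 with the replicate block as well).

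**Figure D4:**
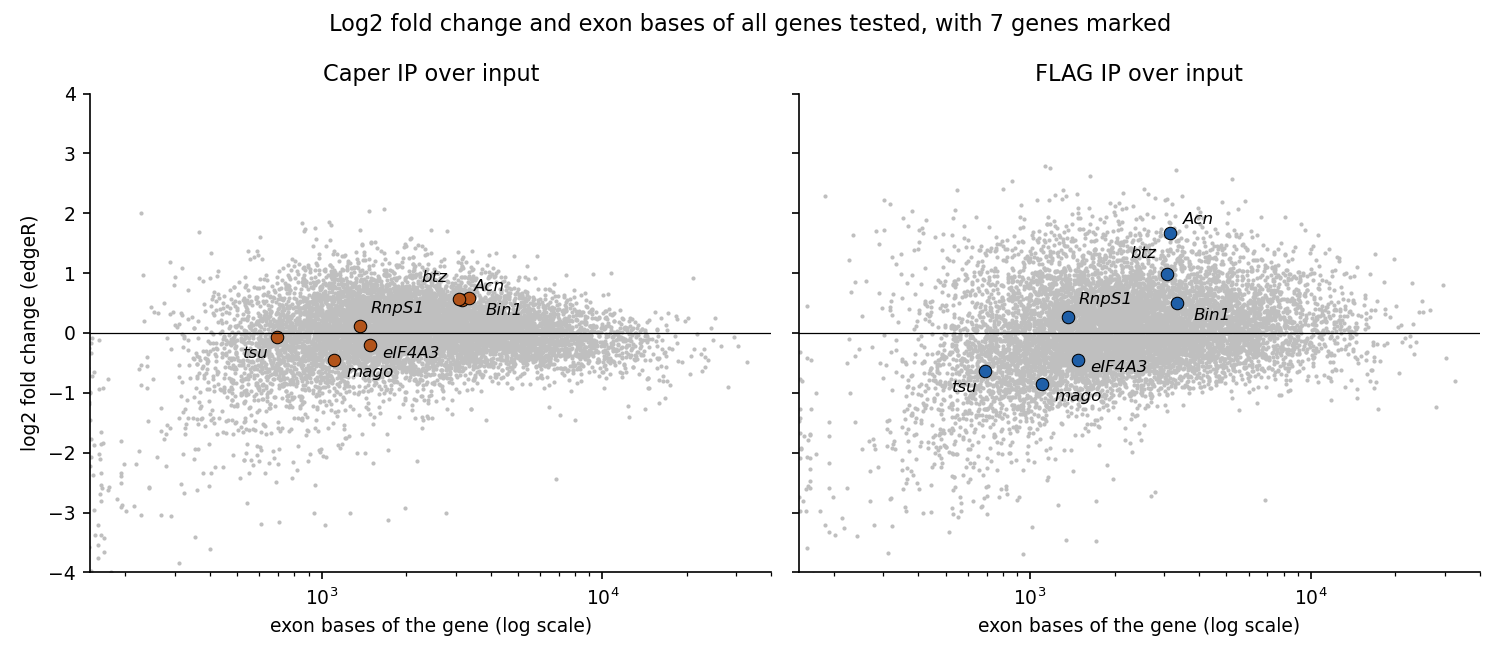
Log2 fold change of IP over input (edgeR) against exon bases (log axis) for all genes tested with the Caper antibody (left) and the FLAG antibody (right), with the 7 genes marked. Outside the plotted range lie 114 of 10778 and 98 of 10476 genes. In both panels *Acn*, *btz* and *Bin1* lie at over 3000 exon bases and above 0, and *tsu*, *mago* and *eIF4A3* lie below 1500 and under 0. *RnpS1* also lies below 1500 exon bases but above 0 in both panels.

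The genes around these complexes were described by lists of 26 genes matched in the table. Of the 26 tested with the FLAG antibody 10 were called higher and 1 lower, and of the 25 tested with the Caper antibody 2 higher and 1 lower, at median log2 fold changes of 0.47 and 0.19 against -0.00 and 0.03 over all genes. Over all genes the shares called higher and lower were 19.5% and 20.8% with the FLAG antibody and 6.33% and 7.53% with the Caper antibody. With the replicate block the counts were 13 and 2 in the FLAG IP and 7 and 2 in the Caper IP, beside 29.6% and 29.5% and beside 15.8% and 14.8% of all genes. Each count of genes called higher includes *Caper* itself, the overexpressed gene. Among factors that load or remove the EJC, *ncm*, whose protein brings eIF4A3 to the spliceosome, rose in the FLAG IP (log2 fold change 1.35, standard error 0.35, edgeR adjusted p = 0.0188). *Pym*, which takes the EJC off messenger RNA, was at 0.41 (adjusted p = 0.0620, and 0.0102 with the block), and *Pnn*, which stands in for Acinus in PSAP, at -0.15 (0.268). Of the NMD factors, 3 of 6 rose in the FLAG IP, where 19.5% of all genes did, and 1 of 6 in the Caper IP, where 6.33% did. The helicase gene *Upf1* rose in both, with log2 fold changes of 0.59 with the Caper antibody (adjusted p = 0.00890) and 0.96 with the FLAG antibody (0.00177). *Upf3*, whose protein joins NMD to the EJC, had 0.60 (0.0615, and 0.0101 with the block) and 0.85 (0.00377), and the endonuclease gene *Smg6* had 0.26 (0.186, and 0.0332 with the block) and 0.59 (0.0157). *Smg1*, which encodes the kinase of Upf1, fell in the Caper IP, at -0.50 (0.0210), and had -0.30 in the FLAG IP (0.0763, and 0.00416 with the block). *Smg5* was at 0.88 in the FLAG IP (0.0751, and 4.17e-05 with the block), and *Upf2* was at 0.02 and 0.01 in the Caper and FLAG IPs.

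Of the 10 mRNA export genes, 0 were called in the Caper IP, where 6.33% of all genes were called higher and 7.53% lower. The block called 2 of them higher there (*Ref1* and *thoc7*), beside 15.8% of all genes. In the FLAG IP 4 of the 10 rose, beside 19.5% of all genes, and the block called 5 higher, beside 29.6%. *Ref1*, the Aly adaptor, had a log2 fold change of 1.31 (edgeR adjusted p = 0.0108), *Hel25E*, the UAP56 helicase, 1.02 (0.0189), the export receptor gene *sbr* 0.75 (0.00110) and the THO subunit gene *thoc7* 0.61 (0.00607). *Nxt1*, the cofactor of the export receptor, was at 0.64 (0.124, and 0.000329 with the block). The Sin3 complex scaffold gene *Sin3A* rose by 0.96 in the FLAG IP (0.00729), and the deacetylase gene *HDAC1* was at -0.14 (0.683). Of 3 transcripts known to need the EJC in flies, 0 were called without the block in either IP. The MAP kinase gene *rl* was at -0.33 in the Caper IP (adjusted p = 0.0623, and 0.0339 with the block), *piwi* had 5 to 60 counts per library, and *osk*, with 0 to 30 counts, was tested with the FLAG antibody only. The *Caper* transcript, which the transgene overexpresses, had log2 fold changes of 0.94 with the Caper antibody (adjusted p = 0.0475) and 0.93 with the FLAG antibody (0.0377).

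Genes with the most similar pattern were ranked by Pearson's r of log2 CPM over the 12 libraries among 8790 other genes, as a description of libraries that share their contrast of IP with input. For *Acn* they were *scaf6*, *CG10948* and *Ciz1* (r = 0.996, 0.995 and 0.994), and for *btz* *pll*, *RhoGAP18B* and *Sirt1* (0.994, 0.991 and 0.990). For *tsu* they were *CG8230* and the ribosomal protein genes *RpS12* and *RpL36A* (0.992, 0.981 and 0.979), for *mago* *UQCR-Q*, *Arfrp1* and *CG31717* (0.966, 0.966 and 0.965), and for *eIF4A3* *DCTN5-p25*, *Sys1* and *CG5021* (0.961, 0.957 and 0.956). *Bin1* was nearest to *CG4716*, *Egfr* and *CG8112* (0.985, 0.977 and 0.976). No gene followed *RnpS1* as closely, the nearest being *CG14257*, *upd1* and *betaTub60D* (0.891, 0.886 and 0.882). Among the members themselves, *Acn* and *btz* had r = 0.957, *tsu*, *mago* and *eIF4A3* had r of 0.839 to 0.866 with each other, and *RnpS1* had between -0.45 and 0.46 with the other members.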

How the data were processed

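RIP-Seq was measured in 12 libraries of adult heads, 3 in each of 4 groups. The authors trimmed the reads with fastp (version 0.20.1), mapped them with STAR (version 2.7.6a) to the annotation dmel_r6.36 and deposited raw counts per gene from featureCounts (Subread version 2.0.1, exons, strand-specific, mapping quality of at least 20), without normalization. Gene symbols were joined by position to RefSeq genes (Release 6 plus ISO1 MT) and from the tables of the study, and 17138 of 17612 genes had one. Libraries were grouped by their titles.

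Each antibody was fitted on its own with edgeR (version 4.0.16, R 4.3.3), using TMM, filterByExpr at its defaults (10 counts, 15 in total), glmQLFit, glmQLFTest and Benjamini-Hochberg adjustment over all genes tested, with calls at an adjusted p below 0.05. The difference between antibodies was a contrast over 12 libraries in 4 groups. A standard error is the log2 fold change over the square root of F. Intervals use the total degrees of freedom of the test, which are the residual ones plus the prior ones that edgeR estimates across genes. The fits were checked on simulated data. The smallest count of a member in a library was 100. Counting error is one part of the spread between replicates that the fits estimate, and p-values measure only the spread between these samples.

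Titles join each IP to the input of the same number. After group means were removed, log2 CPM of the members of a pair correlated at 0.152 to 0.770 over 11012 genes in the 6 pairs. The 12 pairings of unlike numbers ran from -0.714 to 0.565, with a median of -0.281. Removing the mean of so few libraries itself pushes unlike pairings below 0 where like ones are above it. The Caper IP of replicate 2 correlated more with the input of replicate 3 (0.565) than with its own (0.152). The pairing therefore rests on the titles, and these correlations do not settle it for replicate 2. The methods name no replicate term, so values are from the fit without one unless the block is named, and the blocked value stands beside each result whose call it changes.

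The 7 members, the gene lists and the named genes (every member, every listed gene called in either IP, others of a list where it is gone through, and the 3 genes most correlated with each member) were chosen with earlier results of these data known. Alternatives were DESeq2 (version 1.42.0), RLE, library size only, other filters, a correction for exon length, the block, all 12 libraries in one fit, and leaving out libraries or pairs. The deposited summary of read assignment was used for the assigned shares only.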

Additional observations from a re-analysis of the deposited data

Results flagged for a closer look

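Both results below were singled out because the enrichment of a gene differed between the antibodies by a test of that difference. For *Acn* the FLAG value exceeded the Caper value by 1.13 on the log2 scale (edgeR with the replicate block, standard error 0.21, adjusted p = 0.00995). Its pairs lay at 0.10 to 0.93 for replicates 1 to 3 and at 1.28 to 1.98 for replicates 4 to 6. The *Acn* call was lost without the pair of replicate 6 (0.0645). The block called 6.62% of all genes tested higher in this difference and 5.44% lower. *tsu* differed by -0.57 on the same scale (standard error 0.15, adjusted p = 0.0385), its pairs being at -0.26 to 0.07 and at -0.79 to -0.54. This call was lost without any 1 of the pairs of replicates 2 to 6 (0.0636 to 0.164) and with the length correction and block (0.0651), and DESeq2 with the block gave no adjusted p. Without the block edgeR called neither in the fit of all 12 libraries (adjusted p = 0.0768 for *Acn* and 0.174 for *tsu*), while DESeq2 called *Acn* (0.00179), as did edgeR on genes with at least 10 counts in every library and without the Caper IP of replicate 1 (0.0154) or the FLAG IP of replicate 4 (0.0329).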

How the results depend on the processing

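The FLAG IP calls of *Acn*, *btz*, *mago* and *tsu* were made under every alternative run and without each library, and so were the absent calls between the inputs. The replicate block changed the number of members called. It gave 2 higher and 1 lower in the Caper IP (1 and 0 without it) and 4 higher and 3 lower in the FLAG IP (2 and 2 without it). In the difference between antibodies it gave 1 higher and 1 lower (0 and 0 without it). Over all genes the block called 15.8% higher and 14.8% lower in the Caper IP and 29.6% and 29.5% in the FLAG IP. In the difference it called 6.62% higher and 5.44% lower. In the Caper IP, 2 members were higher with DESeq2, with library size only and with DESeq2 and the block, and 1 was lower with length correction and block and with all 12 libraries in one fit. In the FLAG IP, 4 were higher and 3 lower with length correction and block, and 3 were higher with DESeq2 and the block. Length correction without the block and all 12 libraries in one fit each gave 3 lower there. The share of all genes called is not set beside every one of these fits, so such counts are no result about the members. In the difference, 1 was higher with DESeq2, with at least 10 counts in every library, with DESeq2 and the block and with length correction and block. Leaving out libraries or pairs gave 0 to 2 members higher in the Caper IP, and 2 to 3 higher and 2 to 3 lower in the FLAG IP. In the difference it gave 0 to 2 higher and 0 to 1 lower.

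Counts over all genes moved more. Genes higher in the Caper IP (682) were 1622 with library size only, 1708 with the block, 1149 with DESeq2 and block, 1478 with length correction and block, 1055 with all 12 libraries in one fit and 5 to 1494 with libraries left out. Genes lower (812) were 533, 1599, 1346, 1686, 1255 and 107 to 1636 in the same order. In the FLAG IP the block gave 3104 higher (2045 without it), and length correction and block gave 3357 lower (2184 without them). Genes higher in the difference (90) were 442 with DESeq2, 33 with no filter, 160 with at least 10 counts, 57 with length correction, 729 with the block, 750 with DESeq2 and block, 397 with length correction and block and 1 to 1104 with libraries left out. Genes lower (16) were 183 with DESeq2, 6 with no filter, 25 with length correction, 599 with the block, 455 with DESeq2 and block, 546 with length correction and block and 0 to 1164 with libraries left out.

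Signs turned only for values that edgeR did not call without the block. Of these, *Bin1* in the FLAG IP was called higher with the block (edgeR adjusted p = 0.00342). *tsu* in the Caper IP was at 0.085 with library size only and 0.11 with length correction, with and without the block, and ran from -0.16 to 0.034 with libraries left out. *Bin1* ran between -0.36 and 1.01 with the Caper antibody and between -0.11 and 0.92 with the FLAG antibody, and its difference was 0.0091 with the block, 0.038 with DESeq2 and block and -0.69 to 0.86 with libraries left out. The cause of these shifts was not tested. Each group had 3 libraries, and the lowest count of a member in any library was 100 (*mago*).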

Other observations

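Subunits that bind each other were also set side by side within each library, as ratios of counts per kilobase of exon, which do not depend on the scaling between libraries. These are values with no test. The ratio of *mago* to *tsu*, whose proteins form a heterodimer, was 0.459 to 0.539 in the 6 inputs, 0.353 to 0.400 in the Caper IPs and 0.400 to 0.499 in the FLAG IPs. The ratio of *btz* to *eIF4A3* was 2.10 to 3.30 in the inputs, 3.29 to 5.53 in the Caper IPs and 5.49 to 9.03 in the FLAG IPs. The ratio of *Acn* to *RnpS1* was 2.99 to 4.10 in the inputs, 3.13 to 5.96 in the Caper IPs and 6.13 to 11.3 in the FLAG IPs.

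Exons of 6 of the 7 members share 52 to 301 bases with a gene on the other strand, and *Acn* shares none. The counting used strand, so such reads are assigned by their orientation. The neighbours below are named for their overlap, and 0 of the 7 overlapping genes were called in the direction of their member. Over all genes, 6.33% were called higher and 7.53% lower with the Caper antibody, and 19.5% and 20.8% with the FLAG antibody. At these shares so few genes do not decide the part of the overlaps. *Magi*, which overlaps *mago* by 275 bases, had log2 fold changes of 0.25 with the Caper antibody and 0.57 with the FLAG antibody (edgeR adjusted p = 0.152 and 0.0607). *Mys45A*, which overlaps *tsu* by 74 bases, had 0.36 and 0.46 (0.129 and 0.0187), against the direction of *tsu*. *sra*, which shares 301 exon bases with *Bin1*, ran only from 75.9 to 102 CPM over the 12 libraries. Uncalled but in the direction of its member, *CROT* overlaps *btz* by 67 bases and had 0.43 and 0.31 (edgeR adjusted p = 0.109 and 0.289). *Coq2*, which overlaps *eIF4A3* by 81 bases, had -0.23 and -0.38 (0.412 and 0.105), likewise in its member's direction. Over the 12 libraries *CROT* had r = 0.776 with *btz*, and *Coq2* had r = 0.717 with *eIF4A3*. The part of the overlaps in the member values was not tested.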
